A study of Homo sapiens with 6 samples.

Results

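Genes of the ubiquitin and proteasome system were examined after silencing of METTL3 in ARPE-19, a cell line from human retinal pigment epithelium (RPE). The members were protein-coding genes chosen by symbol, with no use of their values. They comprised the UBE enzymes, the USP, OTU and UCHL deubiquitinases, the FBXL, FBXO and FBXW F-box proteins, the KLHL and CUL genes, the RNF, TRIM, MARCH, NEDD4 and SMURF ligases, and the PSMA to PSME proteasome genes. USP18, RNF43 and the immunoproteasome genes PSMB8, PSMB9 and PSMB10 were left out by the rule. In all, 162 of the 7758 genes in the table were members. A symbol had been turned into a date in 13 rows, and 3 of these (MARCH2, MARCH3 and MARCH4) were recovered as members through their gene identifiers.

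Cells infected with lentivirus that delivers a hairpin RNA targeting METTL3 (sh-METTL3) were compared with cells carrying a scrambled hairpin (sh-Control). METTL3 is the catalytic subunit of the complex that writes N6-methyladenosine into mRNA. All cells of both groups were given 1 μg/ml lipopolysaccharide (LPS), a bacterial cell wall component used to provoke inflammation, for 24 h, so no value describes cells without LPS. There were 3 libraries per group. The cells had been selected as stably transformed strains, and it was not stated whether separate infections gave the libraries of a group. The p-values therefore measure the spread between these libraries, which may be technical.

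Ubiquitin is attached to proteins by a cascade in which an E1 enzyme activates it, an E2 enzyme (the UBE2 genes) carries it, and an E3 ligase chooses the substrate. RING ligases (RNF, TRIM, MARCH) bring the E2 to the substrate, HECT ligases (UBE3, NEDD4, SMURF) take the ubiquitin over first, and cullin ligases use F-box or KLHL proteins as substrate adaptors. Deubiquitinases (USP, OTU, UCHL) take ubiquitin off again. Tagged proteins are degraded by the proteasome, in which a 20S core of alpha and beta subunits cuts the chain, a 19S particle of ATPase (PSMC) and non-ATPase (PSMD) subunits recognises and unfolds it, and PSME proteins open the core as alternative activators. Interferon is known to induce PSME1, PSME2 and 3 catalytic subunits that replace those of the standard core, which alters the peptides made for antigen presentation.

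The table held only genes that its authors had already called different between the groups, and this preselection limits every count below. Values are scaled counts, that is, gene read counts divided by 1 size factor per library. The reads on listed genes numbered 10898434 to 17750052 per library. A gene was called when limma on log2(scaled count + 1) gave an adjusted p under 0.05 (Benjamini-Hochberg over 58735 annotated genes). By this rule 87.0% of all listed genes were called, 41.5% higher and 45.5% lower in sh-METTL3. Among the 6740 listed protein-coding genes the shares were 86.9%, 38.1% and 48.8%. Replicates differed by more than sampling noise in every pair, and the second principal component separated sh-METTL3 replicate 3 from the rest.

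The knockdown was checked on its target. METTL3 (ENSG00000165819), on the minus strand of GRCh38 chromosome 14 from 21498133 to 21511375, had scaled counts of 1154, 1108 and 1091 in the control libraries and 966, 1001 and 765 in the sh-METTL3 libraries. The groups did not overlap, with the 3 sh-METTL3 libraries below every control. The log2 fold change was -0.30 ± 0.10 (SE, n = 3 per group), and the adjusted p from limma was 0.0817, so METTL3 did not pass the threshold here. That call depends on the number of tests, set to the 58735 annotated genes. Adjusted over the listed genes alone METTL3 passed (limma adjusted p = 0.0108), as did 7747 of the 7758 listed genes. Over 18 alternatives the adjusted p of METTL3 ranged from 0.0108 to 0.667, and METTL3 passed in 3. Without sh-METTL3 replicate 3, its lowest library, the log2 fold change was -0.18. The study itself reported lower METTL3 protein and less N6-methyladenosine in its METTL3-silenced ARPE19 cells, neither of which is measured by these mRNA counts.

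Of the 7 RPE markers with a row among 14 examined, KRT8, KRT18, LRAT and MITF were higher and BEST1, PMEL and SERPINF1 lower in sh-METTL3. Their summed scaled count was 18860 to 20130 in the control libraries and 30160 to 33480 in the sh-METTL3 libraries. The keratins KRT8 and KRT18 made up that rise, and the sum of the other 5 was 2558 to 2650 against 1646 to 1718. Of 8 mesenchymal markers 5 were listed, with a sum of 56260 to 59500 against 89230 to 103700. VIM rose by 0.96 on the log2 scale, and without it the sum of the other 4 was 11360 to 13230 against 4730 to 5383. The leukocyte list had a row for CD14 alone, at 24.7 to 25.9 against 0 to 2.80. A gene without a row has no level here, and the part of these marker changes in the results below was not tested. The sequencing was of whole cultures, so a change in the number of cells of a kind and a change in RNA per cell cannot be told apart.

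Of the 162 members 141 were called, 52 higher and 89 lower in the sh-METTL3 cells, and 21 did not pass. These counts rest on the number of tests, which was set to the annotated genes here because the number behind the table is not known. Adjusted over the listed genes alone, all 162 passed, 60 higher and 102 lower. So did 7747 of the 7758 listed genes, with 47.7% of those calls higher. With RLE scaling in edgeR the split was even, 59 higher and 59 lower, and the member median was -0.15. The lower calls were 54.9% of the members and the higher calls 32.1%, to be read against the 48.8% and 38.1% of listed protein-coding genes given above. The median log2 fold change was -0.27 over the members and -0.25 over the other listed protein-coding genes. These shares called and this median of the whole family were near the background. For 160 members all 3 sh-METTL3 libraries lay on the same side of all 3 controls, where 98.4% of listed protein-coding genes showed no overlap. At least a halving was seen in 7 members (4.3%) and at least a doubling in 14 (8.6%), beside 12.4% and 12.2% of listed protein-coding genes. Summed over the members, the scaled count was 253317 ± 3013 (SD, n = 3) in sh-Control and 228481 ± 448 in sh-METTL3, which is 9.8% lower. This sum and those below rest on the size factors of the table. Of the reads on listed genes, the members held 1.764%, 1.756% and 1.779% in sh-Control and 1.635%, 1.627% and 1.666% in sh-METTL3.

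The share of the family with a row was close to that of all protein-coding genes, and the difference was not tested. The annotation holds 462 protein-coding genes that match the rule, and 35.1% of them had a row, against 33.8% of all 19951 protein-coding genes. The share varied among roles. All 4 proteasome activators were listed, and so were 4 of 6 UBE3 and UBE4 ligases and 34 of 85 RNF genes. In contrast, 1 of 8 cullins and 1 of 8 genes for 20S beta subunits had a row.

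Most of the listed proteasome subunits were called lower in METTL3-silenced cells, with a median change close to that of listed protein-coding genes. The table held 13 of the 36 genes with names of 20S or 19S subunits (PSMC3IP left out), and 10 of them were called lower, by 0.21 to 0.48 on the log2 scale, and 0 higher. The median log2 fold change of the 13 was -0.29, beside the -0.25 of listed protein-coding genes outside the family, and 48.8% of all listed protein-coding genes were called lower. The sum of the 13 was 27130, 27486 and 27678 in the control libraries and 23891, 23237 and 22685 in the sh-METTL3 libraries. Every sh-METTL3 library lay below every control, and the mean was 15.2% lower. PSMC3IP carries a proteasome name but acts in meiotic recombination. It had 130 ± 3.51 (SD, n = 3) against 90.0 ± 14.3 and did not pass (adjusted p = 0.0681 by limma). With it, the 14 genes with PSMA to PSMD names had a median of -0.32. With RLE scaling in edgeR 5 of these 14 were called lower and 1 higher.

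Among the 19S subunits the largest fall was that of PSMD11 (ENSG00000108671, GRCh38 chromosome 17, 32444261 to 32483318), a scaffold subunit of the lid. Its scaled counts were 2063, 2001 and 2098 in the controls and 1522, 1409 and 1474 in the sh-METTL3 libraries. It changed by -0.48 ± 0.05 (SE) on the log2 scale (limma adjusted p = 0.00019). PSMD13 (-0.39), PSMD7 (-0.34) and PSMD1 (-0.29), a large scaffold of the 19S base, were also called lower. Of the ATPases that form the unfolding ring, PSMC2 fell by 0.36 and PSMC4 by 0.21, and the call of PSMC4 was lost under 12 of 18 alternatives. PSMC1 had 1459 ± 97.2 against 1248 ± 92.9 and did not pass (limma adjusted p = 0.101).

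PSMD3 was the exception among the listed subunits. This lid subunit had scaled counts of 3082, 3354 and 3200 in the controls and 3677, 3719 and 3448 in the sh-METTL3 libraries. All 3 sh-METTL3 libraries lay above the controls, but the log2 fold change of 0.17 ± 0.06 (SE) did not pass (limma adjusted p = 0.0897, unadjusted p = 0.0113). At an unadjusted limma p under 0.05, 1 of the 14 PSMA to PSMD genes was higher and 13 were lower. All 162 members passed at that level, 60 higher and 102 lower, so this count gives direction only. edgeR with the size factors of the table and DESeq2 likewise called 0 of the 14 higher, while edgeR with TMM, RLE or total-count scaling called 1.

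In the 20S core PSMA3 fell from 1499 ± 51.2 (SD, n = 3) to 1117 ± 30.5, a log2 fold change of -0.42. An antisense gene that overlaps it, PSMA3-AS1, was called higher (436 to 611), and the library kit does not mark strand, so reads shared by the pair cannot be told apart. PSMA5 (-0.34) and PSMA4 (-0.23) were called lower, the latter lost under 10 of 18 alternatives. PSMA7 had 2952 ± 92.7 against 2607 ± 169 and did not pass (limma adjusted p = 0.0992). PSMB7, the precursor of the trypsin-like catalytic subunit, was the only beta subunit under the rule with a row, and its values of 3049, 3180 and 3094 against 2582, 2534 and 2615 gave a log2 fold change of -0.27 ± 0.05 (SE, limma adjusted p = 0.00374).

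**Figure D1:**
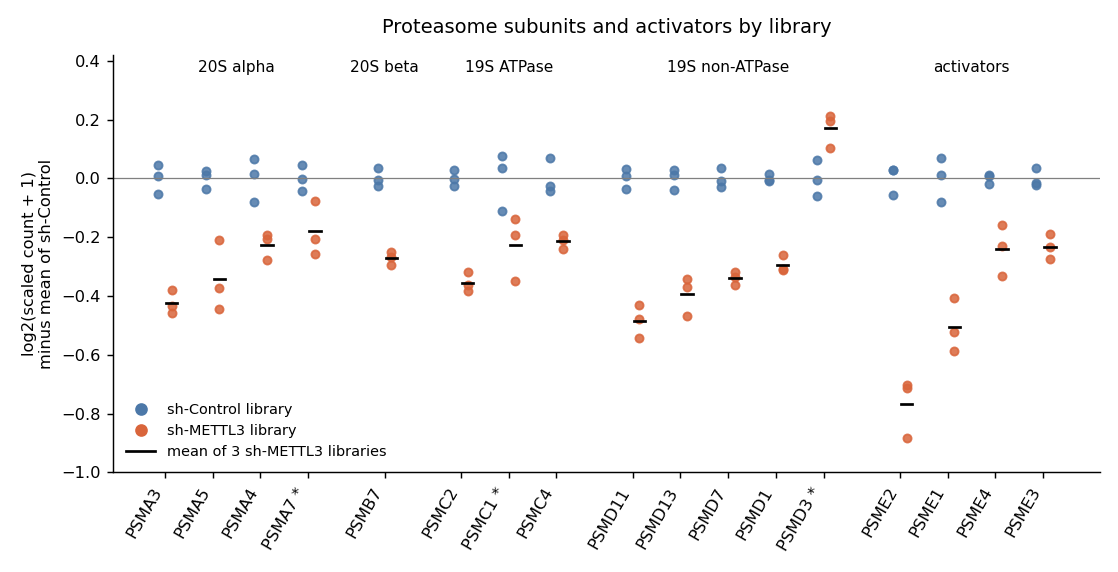
Values of the 13 listed proteasome subunits and 4 activators in each library, as log2(scaled count + 1) minus the mean of the 3 sh-Control libraries of that gene. Blue points are sh-Control libraries, orange points sh-METTL3 libraries and black bars the mean of the 3 sh-METTL3 libraries. An asterisk marks genes that did not pass an adjusted p of 0.05. PSMD3 is the one gene with sh-METTL3 libraries above the controls, and PSME2 lies lowest.

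The 4 activators were called lower, as were 48.8% of listed protein-coding genes. Among the 17 listed 20S, 19S and activator genes under the naming rule, PSMC3IP left out, PSME2 and PSME1 had the largest falls. PSME1 and PSME2 form the 11S ring that interferon induces, PSME3 forms a nuclear ring of its own, and PSME4 encodes the large activator PA200. PSME2 (ENSG00000100911, chromosome 14, 24143362 to 24147570) had 3688, 3913 and 3906 in the controls and 2337, 2079 and 2357 after silencing. PSME1, which lies beside it on chromosome 14, had 5337, 5920 and 5689 against 3932, 3758 and 4258. Both were well separated between groups.

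On the log2 scale PSME2 changed by -0.77 ± 0.06 (SE, limma adjusted p = 1.94e-05) and PSME1 by -0.50 ± 0.06 (adjusted p = 0.000347). PSME4 (-0.24) and PSME3 (-0.23) were called lower with smaller changes, and their calls were lost under 9 and 5 of 18 alternatives. The opposite-strand neighbour ACYP2, which overlaps PSME4, was higher (175 to 257). The 4 activators together had 14158 ± 445 (SD, n = 3) in sh-Control and 10210 ± 342 in sh-METTL3, which is 27.9% lower. All 4 were called lower here, 3 with TMM or total-count scaling, 2 with RLE scaling and 2 to 4 when 1 library was left out. PSME1 and PSME2 were called in each of these.

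Members known to be induced by interferon were read from a list of 14. Of these 8 had a row, PSME1 and PSME2 among them, and the 8 were called lower, where 48.8% of listed protein-coding genes were. Their log2 fold changes ran from -1.46 to -0.46 with a median of -0.55, and the other 6 have no level here. The list was written with results of these data known, and its count is a description. The 8 listed are UBE2L6 (the E2 of the ubiquitin-like modifier ISG15), PSME1, PSME2, RNF213 and the antiviral ligases TRIM5, TRIM21, TRIM22 and TRIM69. RNF213 is a very large ligase involved in vascular disease. The 6 without a row are TRIM14, TRIM25, TRIM26, TRIM34, TRIM38 and TRIM56.

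TRIM22, which restricts several viruses, had 6044, 6282 and 6854 in the controls against 4071, 3875 and 5261. TRIM5, which restricts retroviruses and overlaps TRIM22 on the opposite strand, had 1280, 1166 and 1245 against 833, 775 and 994. TRIM21, the cytosolic antibody receptor, had 673, 737 and 799 against 371, 325 and 550. In each of these genes sh-METTL3 replicate 3 lay closest to the controls. The log2 fold changes were -0.55 ± 0.10 for TRIM22, -0.51 ± 0.09 for TRIM5 and -0.86 ± 0.17 for TRIM21 (SE, limma adjusted p = 0.00513, 0.00375 and 0.00616).

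RNF213 had 13288, 14018 and 14312 against 9599, 9487 and 11164. UBE2L6 had 2429, 2608 and 2575 against 1661, 1437 and 2134, and its call was lost under 3 of 18 alternatives. Again no sh-METTL3 library reached a control, and replicate 3 was the highest of its group. In fact sh-METTL3 replicate 3 was the highest of the 3 in 8 of the 8 interferon-linked members, while over the 161 members with 3 different values it was the highest in 46.6%. Without that library 8 of 8 were still called lower, with a median of -0.70. With any other library left out 7 or 8 were called and with the other scalings 8, while limma without the intensity trend called 5.

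A list of 4 interferon-induced genes that the rule left out was also written with results of these data known. The immunoproteasome subunit PSMB9 had 1035, 1141 and 1155 in the controls against 349, 276 and 419, a log2 fold change of -1.69 ± 0.13 (SE). PSMB10 had 417 ± 10.5 (SD, n = 3) against 180 ± 38.7 (-1.23), and PSMB8 had 1760 ± 13.3 against 1292 ± 146 (-0.45). USP18, which removes ISG15 from proteins, had 315 ± 21.5 against 126 ± 59.6 (-1.42). The 4 were called lower, as were 48.8% of listed protein-coding genes, and sh-METTL3 replicate 3 was the highest of its group in each. PSMB7, the standard subunit that PSMB10 replaces, fell by 0.27.

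The genes of ISG15 conjugation were put together after their values were seen, and UBE2L6 and USP18 are already counted above. ISG15 itself had a log2 fold change of -1.48 ± 0.31 (SE, limma adjusted p = 0.0105). Its E1 enzyme UBA7 fell from 1547 ± 125 (SD, n = 3) to 298 ± 100 (-2.42), its E2 enzyme UBE2L6 from 2537 ± 95.2 to 1744 ± 356 (-0.56), and its ligase HERC5 from 377 ± 24.8 to 223 ± 92.2 (-0.83). These 4 genes were called lower, as were 48.8% of listed protein-coding genes.

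**Figure D2:**
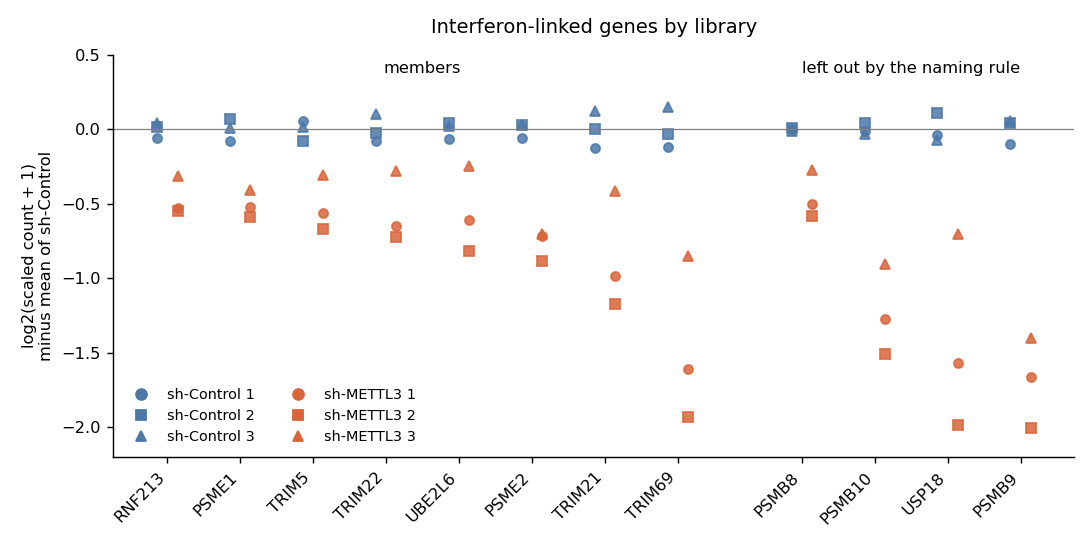
Interferon-linked genes in each library, as log2(scaled count + 1) minus the mean of the 3 sh-Control libraries, for the 8 listed members (left) and the 4 genes that the naming rule left out (right). Colour gives the group and the symbol shape gives the replicate. Every sh-METTL3 point lies below the controls, and the triangle of sh-METTL3 replicate 3 is the highest orange point for each gene.

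Promoter sequences were searched for a pair of short motifs, on both strands, in the 300 bases around the gene start (250 before, 50 after; RefSeq, GRCh38.p14). The RefSeq start can differ from the gene bounds of the table's annotation, and the windows shown for PSME2, PSMB10, TRIM5 and TRIM69 lie inside those bounds. The core of the interferon-stimulated response element, GAAANNGAA, was present in 8.1% of 35116 promoters. It was present in 5 of the 7 interferon-linked members with a promoter sequence (PSME1, PSME2, TRIM5, TRIM21 and TRIM69) and in 13 of 139 promoters of all listed members. Among listed subunits and activators 4 of 15 promoters held it, those of PSMA4, PSMC2, PSME1 and PSME2. Of subunits without a row 1 of 20 did. The windows that lie wholly before the start are shown with the motif, or its reverse complement TTCNNTTTC, in capitals, for the interferon-linked members that hold it there. PSMB10 is shown beside them because its 9 letters equal those of PSME2. It was the 1 match among 3 interferon-linked genes outside the rule with a promoter sequence.
PSME2 (chr14:24146620-24146648, minus strand, motif 28 bases before the start): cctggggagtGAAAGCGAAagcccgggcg
PSMB10 (chr16:67936853-67936881, minus strand, 21 bases before): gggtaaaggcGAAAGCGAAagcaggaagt
TRIM5 (chr11:5685082-5685110, minus strand, 26 bases before): tagtttatctTTCACTTTCctgccctgag
TRIM69 (chr15:44736457-44736485, plus strand, 61 bases before): taatgagggtTTCTCTTTCtcttaagcaa

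The second motif was the core of the antioxidant response element, TGACNNNGC, which is bound by NFE2L1 and NFE2L2, known activators of proteasome genes. It was present in 13.3% of all promoters, in 6 of 15 promoters of listed subunits and activators and in 4 of 20 promoters of subunits without a row, and in 28 of 139 promoters of all listed members. The 2 motifs overlapped in 0 places. NFE2L2 itself was called lower, as were 48.8% of listed protein-coding genes, with a log2 fold change of -0.49 ± 0.05 (SE, limma adjusted p = 0.000117). NFE2L1 had no row, and whether either factor bears on the subunits was not tested. The motif was found in PSMD3, the subunit whose values were higher, as well as in PSME1, PSME2, PSME4, PSMC4 and PSMD1. The windows wholly before the start are shown, and in PSME4 the capitals are the reverse complement. A match describes the letters and does not show that a factor binds there.
PSMD3 (chr17:39980760-39980788, plus strand, motif 37 bases before the start): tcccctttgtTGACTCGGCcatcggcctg
PSME1 (chr14:24136098-24136126, plus strand, 86 bases before): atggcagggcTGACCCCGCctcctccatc
PSME2 (chr14:24146767-24146795, minus strand, 175 bases before): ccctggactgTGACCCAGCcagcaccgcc
PSME4 (chr2:53971009-53971037, minus strand, 34 bases before): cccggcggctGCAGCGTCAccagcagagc

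Of 13 listed UBE2 genes, the E2 conjugating enzymes, 5 (38.5%) were called higher and 6 (46.2%) lower, near the 38.1% and 48.8% of listed protein-coding genes. Their median change was -0.22 on the log2 scale, with the same median when UBE2U is set at its bound. Their summed scaled count was 31706 ± 209 (SD, n = 3) in sh-Control and 31124 ± 778 in sh-METTL3, so the sums overlapped. UBE2H, an E2 that works with the CTLH ligase, showed the largest rise among those with a mean of at least 100. It had 5659, 6066 and 5852 against 8520, 8514 and 8003, a log2 fold change of 0.51 ± 0.05 (SE, limma adjusted p = 0.000106). UBE2D3, an E2 shared by many RING ligases, fell from 8318 ± 205 to 6864 ± 375 (-0.28).

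UBE2N, the E2 for the lysine 63 chains of inflammatory signalling, fell by 0.30, and UBE2K by 0.30. UBE2J1 and UBE2G2, which serve degradation of proteins from the endoplasmic reticulum, fell by 0.23 and 0.22. UBE2S, which extends chains for the anaphase-promoting complex, had 1403, 1446 and 1275 against 2140, 2058 and 1507. It was called higher (0.45), with sh-METTL3 replicate 3 close to the controls, and it overlaps the opposite-strand gene RPL28, which fell by 0.30. UBE2U had 0 reads in all 3 controls and a mean scaled count of 10.1 after silencing, at least 11.3-fold higher against a floor of 3 reads over the control group, which covers counting error only.

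Of the 4 UBE3 and UBE4 ligases 3 were called lower, beside 48.8% of listed protein-coding genes. UBE3A, a HECT ligase that is imprinted in neurons, had 2303, 2305 and 2429 in the controls and 993, 1139 and 1045 in sh-METTL3. Its log2 fold change was -1.15 ± 0.06 (SE) with a limma adjusted p of 1.94e-06. UBE4A, a chain-elongating enzyme, fell by 0.86 and UBE3C, which acts at the proteasome, by 0.22. UBE4B was called higher, from 1337 ± 37.5 (SD, n = 3) to 1699 ± 125. NEDD4 (-0.46) and SMURF1 (-0.43), HECT ligases of membrane proteins and of the TGF-beta pathway, were both called lower.

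**Figure D3:**
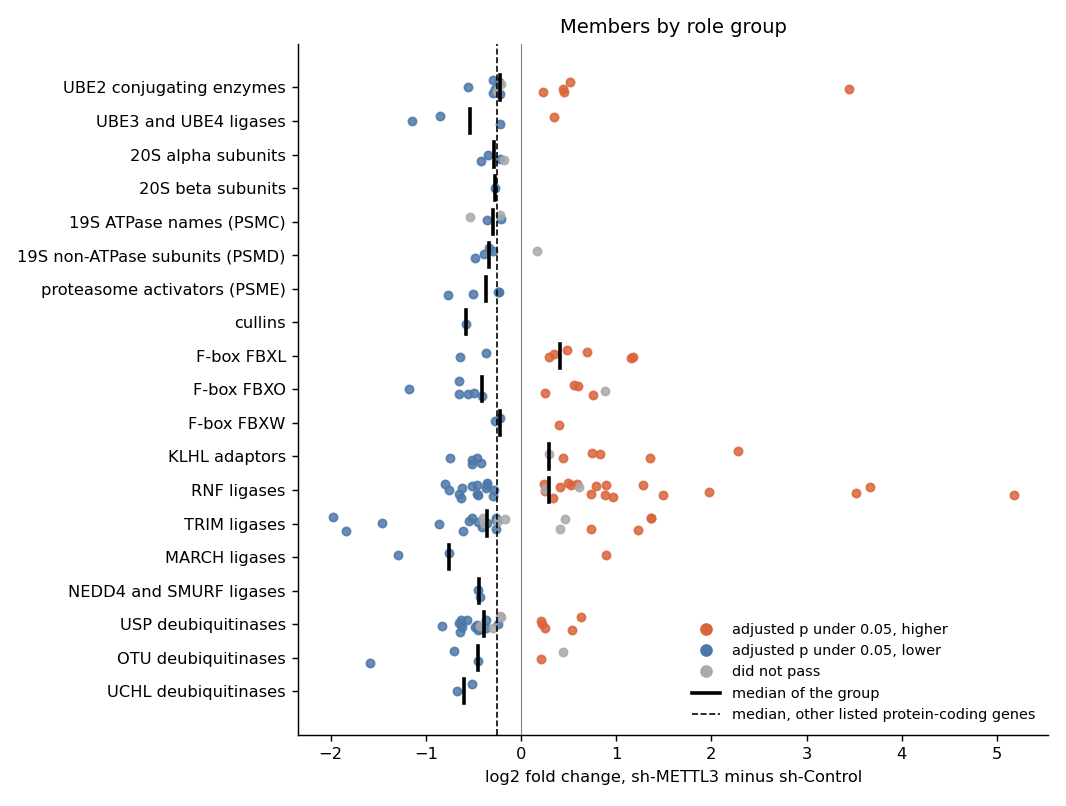
Log2 fold change of 161 members by role group on the fitted log2(scaled count + 1) scale, where 1 member whose values are not given is left out of the points and kept in the medians. Orange and blue points passed an adjusted p of 0.05 and were higher or lower, grey points did not pass, thick bars are group medians and the dashed line is the median of the other listed protein-coding genes. Points of the proteasome groups lie left of 0 apart from PSMD3, while FBXL and RNF genes spread to the right.

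Adaptors of cullin ligases were divided. CUL5, a cullin used by SOCS-box receptors and the only one with a row, had 1426, 1380 and 1383 against 888, 938 and 974. Its log2 fold change was -0.58 ± 0.06 (SE, limma adjusted p = 0.000107). Of 22 F-box genes 11 were called higher and 10 lower, beside 38.1% and 48.8% of listed protein-coding genes. The FBXL genes, with leucine-rich repeats, were called higher in 6 of 8 and had a median of 0.41, beside the same 38.1% and a background median of -0.25. With 1 library left out 4 or 5 were called higher.

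FBXL2, a membrane-anchored F-box protein, had 352, 379 and 378 against 863, 902 and 757, a log2 fold change of 1.18 ± 0.09 (SE, limma adjusted p = 1.14e-05). It overlaps the opposite-strand gene UBP1, which had 2194 against 2502 and did not pass (limma adjusted p = 0.111). FBXL5, the iron sensor that marks IRP2 for degradation, was one of the 2 that fell. It had 3162, 3451 and 3824 against 2180, 2222 and 2292 (-0.64 ± 0.07). FBXL8 (0.69) and FBXL19 (0.48) rose, and FBXL19-AS1, which overlaps FBXL19, rose by 1.59.

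FBXO32, also called atrogin-1 and known for muscle wasting, was the F-box gene with the highest level per kb. Its scaled counts of 12444, 12790 and 13439 rose to 21790, 23560 and 20114, a log2 fold change of 0.76 ± 0.07 (SE, limma adjusted p = 4.51e-05). FBXO27, which binds glycoproteins, fell from 255 ± 18.8 (SD, n = 3) to 112 ± 10.3 (-1.18), and its relatives FBXO2 and FBXO44, which overlap each other, rose by 0.60 and 0.56. FBXO5, the inhibitor of the anaphase-promoting complex, fell by 0.65. FBXW4 (0.39) was called higher and FBXW8 (-0.27) lower, the latter lost under 10 of 18 alternatives.

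The KLHL genes, which serve CUL3, were called higher in 5 of 11 and lower in 5 (45.5% each), near the 38.1% and 48.8% of listed protein-coding genes. KLHL13, which acts on Aurora B in mitosis, had 205, 221 and 243 against 611, 552 and 549, a log2 fold change of 1.35 ± 0.10 (SE, limma adjusted p = 1.17e-05). KLHL7, a retinitis pigmentosa gene, rose from 710 ± 17.7 (SD, n = 3) to 964 ± 51.0 (0.44). KLHL3, known for WNK kinases in the kidney, rose by 0.75, and KLHL25 showed the largest fall (-0.75 ± 0.16, limma adjusted p = 0.0125), a call lost under 4 of 18 alternatives.

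Among the RING ligases, 18 of 34 RNF genes were called higher and 14 lower, while 4 of 23 TRIM genes were called higher and 13 lower. The medians were 0.30 and -0.36, respectively. The shares called higher were 52.9% (RNF) and 17.4% (TRIM) beside 38.1% of listed protein-coding genes, and those called lower were 41.2% and 56.5% beside 48.8%, with a background median of -0.25. Of the 10 largest changes with a mean of at least 100, 3 were RNF genes, all of them rises, and 4 were TRIM genes, of which 3 fell. RNF157 (control mean 13.25) and RNF144A (66.24) reached that mean only through their sh-METTL3 libraries. TRIM7 (sh-METTL3 mean 51.86) reached it only through its controls. When 1 library was left out, 13 to 16 RNF genes were called higher and 10 to 13 lower, and 2 to 5 TRIM genes higher and 12 to 15 lower, with 2 TRIM genes higher without sh-Control replicate 2 or without sh-METTL3 replicate 1. At a mean of at least 50, 14 of 30 RNF genes were called higher and 13 lower. For the TRIM genes 2 of 21 were then higher and 13 lower. A mean under 100 was found for 6 RNF and 2 TRIM genes. At that level 53.7% of listed protein-coding genes were called higher. These family differences are descriptions, and no test of the difference was made.

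RNF157 (ENSG00000141576, GRCh38 chromosome 17, 76142453 to 76240373, minus strand), a ligase described in neuronal survival, showed the largest change of all members. Its scaled counts were 19.9, 6.73 and 13.1 in the controls and 519, 485 and 433 in the sh-METTL3 libraries. The gene was thus weakly detected in every control, and all sh-METTL3 libraries lay far above. It changed by 5.18 ± 0.31 (SE) on the log2 scale (limma adjusted p = 3.08e-06), and the ratio of the means was 36.1. The overlapping antisense gene RNF157-AS1 rose too, from a mean of 0.27 to 11.4.

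RNF150, a membrane-bound ligase, had 132, 129 and 137 against 468, 534 and 577, a log2 fold change of 1.98 ± 0.11 (SE, limma adjusted p = 2.06e-06). RNF144A, a RING-in-between-RING ligase, had 86.2, 49.0 and 63.6 against 186, 155 and 213 (1.49 ± 0.22), whereas its paralog RNF144B was called lower (-0.36). RNF128, also called GRAIL and known in T cell anergy, rose by 0.89. Falls in this family were smaller. RNF168, which marks histone H2A at DNA breaks, had 576, 563 and 513 against 328, 309 and 307, a log2 fold change of -0.80 ± 0.09 (limma adjusted p = 0.000144), and RNF138 and RNF169, which act in the same repair response, fell by 0.75 and 0.51.

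TRIM58 (ENSG00000162722, GRCh38 chromosome 1, 247857199 to 247878205), a ligase known from red cell precursors, showed the largest fall. It had 3304, 4019 and 3781 in the controls and 813, 883 and 1135 in the sh-METTL3 libraries. It changed by -1.98 ± 0.12 (SE) on the log2 scale (limma adjusted p = 2.71e-06). TRIM7 had 161, 168 and 180 against 37.3, 30.9 and 87.3 (-1.84 ± 0.32, adjusted p = 0.00339), with sh-METTL3 replicate 3 the highest of its group. TRIM69 had 782, 833 and 942 against 278, 222 and 471 (-1.46 ± 0.22, adjusted p = 0.00132), with the same library highest.

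TRIM52 rose from 141, 146 and 137 to 324, 302 and 380, a log2 fold change of 1.23 ± 0.12 (SE, limma adjusted p = 7.91e-05). TRIM59 rose by 0.74. TRIM27 (-0.42), TRIM33 (-0.26), a SMAD4 ligase, and TRIM37 (-0.36) were among those called lower. Of the MARCH genes, membrane-bound ligases that control surface proteins, MARCH3 fell from 889, 825 and 817 to 352, 351 and 330 (-1.29 ± 0.08, adjusted p = 2.97e-06) and MARCH4 from 2199 ± 83.1 (SD, n = 3) to 1305 ± 113. MARCH2 rose from 386 ± 22.3 to 719 ± 72.3 (0.89).

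**Figure D4:**
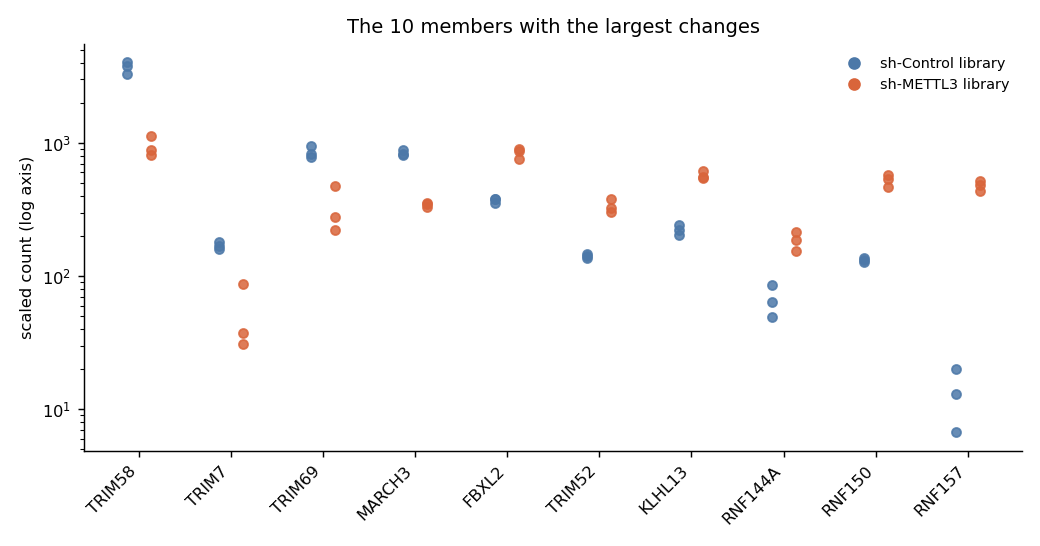
Scaled counts, on a log axis, of the 10 members with the largest absolute log2 fold change among called members whose mean was at least 100 and whose groups did not overlap. Blue points are the 3 sh-Control libraries and orange points the 3 sh-METTL3 libraries. RNF157 rises from 6.73 to 19.9 up to 433 to 519, and TRIM58 falls from at least 3304 to at most 1135.

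Of 31 listed deubiquitinases 19 (61.3%) were called lower and 7 (22.6%) higher, against 48.8% and 38.1% in the background, and their median log2 fold change was -0.43 against -0.25. With 1 library left out 15 to 21 were called lower. The higher calls numbered 3 or 4 without any single library other than sh-METTL3 replicate 3, and 8 without that one. UCHL1, a deubiquitinase known as abundant in neurons, had the highest level per length of all members in the controls (4223 scaled counts per kb). It had 9375, 10137 and 9398 against 6596, 6943 and 6624, a log2 fold change of -0.52 ± 0.05 (SE, limma adjusted p = 0.000109). The other members with the highest levels per kb were PSME1, FBXO32, PSMA7 and PSMB7.

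UCHL5, which removes ubiquitin at the 19S particle, had 917, 903 and 883 against 602, 566 and 524. It fell with the subunits listed above, with a log2 fold change of -0.68 ± 0.07 (SE, limma adjusted p = 0.000147). OTUD4 had 3436, 3312 and 3336 against 2063, 1985 and 2119 (-0.71 ± 0.05, adjusted p = 9.12e-06), and the opposite-strand gene ABCE1, which overlaps it, fell too. OTUD5 was the one OTU gene called higher (0.21), a call lost under 6 of 18 alternatives.

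Of 24 USP genes 14 (58.3%) were called lower and 6 (25.0%) higher, beside the same background of 48.8% and 38.1%. USP28, a stabiliser of MYC, had the largest fall, from 1203, 1107 and 1158 to 634, 619 and 702 (-0.83 ± 0.07, limma adjusted p = 3.35e-05). USP1 (-0.63), which acts on PCNA in DNA repair, USP15 (-0.65), USP10 (-0.46) and USP7 (-0.36), the deubiquitinase of MDM2 and p53, were called lower. USP30, which sits on mitochondria and opposes mitophagy, had the largest rise, from 449, 549 and 573 to 804, 860 and 756 (0.63 ± 0.10, adjusted p = 0.00191). USP5, which takes free ubiquitin chains apart, rose by 0.25 and USP22 by 0.20.

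Chromosomal position moved with part of these falls. On the long arm of chromosome 11 (from base 54000000) 9 of 9 members were called lower with a median of -0.62, and so were 353 of all 424 listed genes there, with a median of -0.63. On chromosome 15 up to base 50000000 both members, UBE3A and TRIM69, were called lower, as were 130 of 140 listed genes (median -1.06). CUL5, UBE4A, USP28, USP2, UBE2L6 and 4 RNF genes lie in the first stretch. Beyond both stretches 130 of 151 members were called, 52 higher (34.4%) and 78 lower (51.7%), with a median of -0.25. Of all 7194 listed genes there, non-coding genes included, 44.0% were called higher and 42.3% lower, with a median of 0.18. Whether the position or the role of these genes bears on their fall was not tested.

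On chromosomes other than 11 and 15 the members had a median close to that of all protein-coding genes. Their median was -0.23 over 141 members, and that of all 5951 listed protein-coding genes there was -0.22. On the rest of chromosome 11 the 6 members had a median of -0.45 (131 listed protein-coding genes, -0.24). On the rest of chromosome 15 the 4 members were called lower with a median of -0.54 (151 listed protein-coding genes, -0.22). Over all chromosomes 48.8% of listed protein-coding genes were called lower, and the share in that stretch alone is not given here. Of the 8 interferon-linked members 4 lie on chromosome 11 and 1 on chromosome 15, and the 3 elsewhere are PSME1, PSME2 and RNF213.

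**Figure D5:**
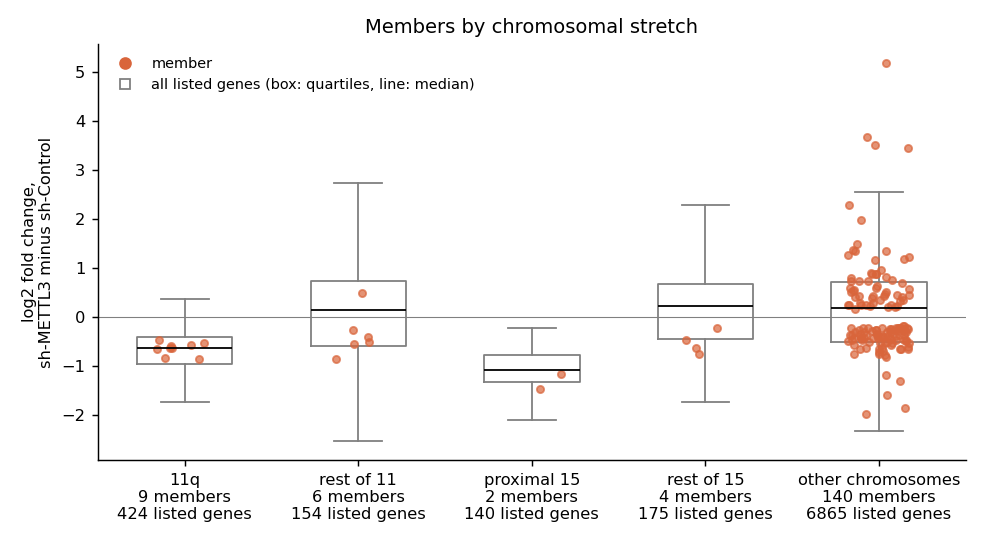
Log2 fold change of members (orange points) and of all listed genes (boxes with quartiles, median line and whiskers of 1.5 times the quartile range) by chromosomal stretch. On 11q and proximal 15 the points and the boxes both lie below 0, with box medians of -0.63 and -1.06, and the boxes include non-coding genes. Of 141 members on other chromosomes 140 are drawn.

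Most weakly expressed members were called higher. Of 13 members with a mean scaled count under 100, 10 were called higher and 1 lower, where 53.7% and 37.5% of listed protein-coding genes of that level were called higher and lower. RNF165 rose from 4.74 ± 1.83 (SD, n = 3) to 69.6 ± 8.43 and RNF175 from 2.98 ± 1.94 to 41.7 ± 12.7. KLHL30, TRIM17, RNF224 and FBXL13 were also called higher. TRIM73 has near-identical copies, so its counts are uncertain, and FBXL13 overlaps LRRC17 on the opposite strand, which fell by 1.86. OTULINL, a relative of the deubiquitinase OTULIN without catalytic activity, was the one called lower (77.0 ± 16.7 to 26.5 ± 12.3). At a mean of at least 100, 42 members (28.2%) were called higher and 88 (59.1%) lower of 149. Among listed protein-coding genes of that level the shares were 35.3% and 50.8%.

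Genes of the pathway outside the naming rule were read from 6 lists, of which 62 of 138 genes had a row, with 18 called higher and 37 lower. These counts and those of the lists below are to be read against 38.1% higher and 48.8% lower among listed protein-coding genes. Of the free ubiquitin genes and the E1 enzymes, those of related modifiers included, 3 of 4 were called lower, led by UBA7. Of the assembly factors, regulators and shuttle factors of the proteasome 4 of 8 were called lower, among them the assembly chaperone PSMG1 (-0.51), and 2 higher, VCP (0.23) and RAD23B (0.22). In the NEDD8 cycle, which switches cullins on, 5 of 8 were lower and 3 higher. CAND2, a cullin exchange factor, fell from 267 ± 23.5 (SD, n = 3) to 19.5 ± 6.83 (-3.77), and NEDD8 (0.35), COPS7A (0.30) and COPS8 (0.59) rose.

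In the anaphase-promoting complex 4 of 7 genes were called lower, namely ANAPC5, ANAPC7, ANAPC13 and CDC23, and its activators CDC20 and FZR1 were called higher. CDC20 had 675, 683 and 652 against 1371, 1280 and 914 (0.80 ± 0.13, limma adjusted p = 0.00194), with sh-METTL3 replicate 3 closest to the controls, as in UBE2S. Of 27 other ligases and adaptors 16 were called lower and 8 higher. BIRC3, an NF-kappaB target and ligase of TNF signalling that lies on 11q, had 8409, 8238 and 8081 against 2310, 2228 and 1595 (-2.03 ± 0.12), and HERC2 and UBR1, both on proximal chromosome 15, fell by 1.06 and 1.16. Of 8 other deubiquitinases 5 were lower, among them TNFAIP3 (A20, -0.73), a brake on NF-kappaB, and 3 higher, among them YOD1 (0.76).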

How the data were processed

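RNA was extracted with Trizol, and libraries were made with an Illumina TruSeq kit and sequenced single-end. HISAT2 2.0.5 and hg38 are named in the submitters' processing notes. The study's methods name Cufflinks with RefSeq mRNAs, but the rows are Ensembl genes whose start and end equal GENCODE release 29 for all 7758, and the read counter was not given in the sources used here. The authors deposited a signal per gene and library, the read count divided by 1 size factor, for genes they had called. Dividing by the value of 1 read gave whole reads for 100% of values (tolerance 0.1). The authors' means, fold changes and p-values were not used.

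limma 3.58.1 (R 4.3.3) with an intensity trend was fitted to log2(signal + 1) of all listed genes, without covariates, and adjusted over 58735 genes, with unlisted genes taken as p = 1. Fold changes on this scale understate changes of low genes. Alternatives were edgeR 4.0.16, DESeq2 1.42.0 and limma-voom on the recovered reads, other scalings, filters and thresholds, a replicate block, and leaving out each library. The fits were tested on simulated data. Correlations of same-numbered libraries were 0.0036, 0.0193 and -0.015, so libraries were not treated as pairs.

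Genes named by rule were METTL3, per role group the largest rise and fall (called, mean 100 or more, groups apart), the 10 largest changes, all proteasome genes and the 5 highest per kb. Other names, the motif GAAANNGAA and the comparison without PSMC3IP were chosen after values were seen. The members and lists were chosen with earlier results of these data known. Promoter sequences matched 139 of 162 members. A single result of 1 listed pathway gene is not reported here.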

Additional observations from a re-analysis of the deposited data

How the results depend on the processing

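RLE factors shifted the median of all listed genes by 0.12 (log2) and gave 118 called members, 59 higher and 59 lower, against 36.9% higher in the reported fit. Over all listed genes 60.2% of calls were higher against 47.7%. The RLE medians were -0.15 for members and -0.19 for proteasome genes, of which 5 were lower and 1 higher. TMM gave -0.23 and -0.27, and total-count scaling -0.23 and -0.27, each with 1 proteasome gene (PSMD3) called higher, as did adjustment over the listed genes. No member changed sign, but the smallest member change was 0.17, so that shift could turn none. The member median was -0.30 at a mean of at least 50 and -0.25 without 11q and proximal 15. A threshold of 0.01 left 34 members higher. limma without the trend called 97 members (61 lower).

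Leaving out 1 library gave 103 to 143 called members (67 to 92 lower, 36 to 51 higher), member medians of -0.28 to -0.26 and 0 to 1 proteasome genes higher. METTL3 was -0.38 to -0.18. It passed with DESeq2 (-0.30), after adjustment over listed genes (-0.30, adjusted p = 0.0108) and with the replicate block (-0.30, adjusted p = 0.0456). The block called 134 members, 10 lost and 3 gained, though the shared numbers do not mark pairs. Of 48 named members 11 lost their call under at least 1 of 18 alternatives, PSMC4 in 12, PSMA4 and FBXW8 in 10 and PSME4 in 9, and 4 gained one. The cause was not tested. Total library depth is unknown, and calls are limited to genes the authors had selected.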
